A study of Rattus norvegicus with 8 samples.

Results

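The CpG-dense stretches of rat bladder DNA that were neither unmethylated nor fully methylated in normal tissue were followed into bladder tumours. The genome was divided into tiles of 200 bp, and the 32980 tiles on chr1 to chr20 that held 10 or more CpGs in each of the 8 samples were called dense. The methylation level of a tile is the number of methylated calls divided by all calls of its CpGs, in percent. Members were chosen by their control levels alone, and a tile was a member when the mean level of the 3 controls lay between 20% and 80%, and 1365 of the 32980 dense tiles (4.14%) met this rule. In 215 of these every control lay between 40% and 60%. Those are called imprinting-like here only for that level, and the remaining 1150 are called the other members. Among the other dense tiles, 29898 had a control mean below 20% and 1717 a control mean above 80%.

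The samples were 3 untreated controls and 5 urothelial carcinomas (UCs) of the bladder. The sample titles say bladder for the controls, the study's results speak of bladder urothelium and its methods of bladder tissue. Whether muscle and stroma were present in the controls is thus not settled, and the part of cell types in the differences cannot be told apart. The rats were F344/DuCrj males that entered the experiment at 10 weeks of age. They drank water with 0 or 200 ppm dimethylarsinic acid (DMA), an organic arsenical that causes bladder tumours in rats, in a study of 104 weeks. Per the study's methods, rats were killed when moribund or at the end of the study. Which of these held for each sampled rat is not stated there. The UCs were tumours seen at dissection that were large enough for DNA extraction, and the sources used here do not say whether they came from different animals. Per the study's methods these tumours had no histology, and they were taken to be UCs from their size and the authors' earlier experience. The files hold methylation calls and no expression, so the labelled tissue could not be checked against the transcripts of its marker genes.

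DNA methylation in mammals is carried mainly by cytosines of CpG dinucleotides. Most dense clusters of CpGs, the CpG islands, are free of it, while scattered CpGs and repeats are mostly methylated. An intermediate level arises when one parental allele is methylated and the other is not, as at imprinting control regions, when the tissue holds cells of different methylation, or when methylated and unmethylated CpGs lie side by side. At an imprinted gene the mark is set in the germ line of one parent and is kept in the cells of the body, so that the gene is read from the allele of one parent. Reduced representation bisulfite sequencing (RRBS) cuts DNA at sites that contain CpG and converts unmethylated cytosine, so that each read reports the methylation of the CpGs in it. It gives no information on which allele a read came from unless a variant lies in it. In bulk DNA, alleles that differ and cells that differ cannot be told apart from the level of a tile.

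Some stretches of promoter are shown because the tiles over them carry the patterns described below, and are given as the part of the member tile that lies within the 250 bases before the annotated start of the gene. The first 3 (Dsc3, Plekhg5, Krtcap3) lost methylation in UCs, the next 2 (Spesp1, Fgd3) gained it, the next 4 (Hoxd12, Lep, Adad1, Tmprss12) differed between UCs, and the last (Igf2r) belongs to an imprinted gene. Capitals mark the CpGs, and each line runs 5′ to 3′ on the strand of the gene. The sequences are those of RefSeq with coordinates of the GRCr8 build, whereas tile positions are on rn6, the build of the files. Promoters were placed on rn6 by the spacing of their CpGs, as described in the processing notes.
Dsc3 (chr18:11688964-11689121, - strand): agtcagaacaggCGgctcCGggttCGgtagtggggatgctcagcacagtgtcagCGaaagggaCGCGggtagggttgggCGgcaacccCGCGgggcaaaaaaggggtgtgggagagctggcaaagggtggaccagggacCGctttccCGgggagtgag
Plekhg5 (chr5:167885116-167885274, + strand): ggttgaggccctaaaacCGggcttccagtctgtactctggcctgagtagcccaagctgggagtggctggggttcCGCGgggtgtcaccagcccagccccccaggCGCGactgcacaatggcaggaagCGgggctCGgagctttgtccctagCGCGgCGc
Krtcap3 (chr6:30842476-30842580, - strand): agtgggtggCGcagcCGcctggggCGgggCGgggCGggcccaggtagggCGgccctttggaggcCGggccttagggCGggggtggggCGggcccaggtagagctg
Spesp1 (chr8:71661303-71661404, - strand): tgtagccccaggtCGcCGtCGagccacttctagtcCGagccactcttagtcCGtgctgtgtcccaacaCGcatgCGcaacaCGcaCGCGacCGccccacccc
Fgd3 (chr17:15542984-15543071, + strand): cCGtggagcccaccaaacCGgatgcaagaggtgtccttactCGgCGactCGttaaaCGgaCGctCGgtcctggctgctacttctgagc
Hoxd12 (chr3:79984925-79985105, + strand): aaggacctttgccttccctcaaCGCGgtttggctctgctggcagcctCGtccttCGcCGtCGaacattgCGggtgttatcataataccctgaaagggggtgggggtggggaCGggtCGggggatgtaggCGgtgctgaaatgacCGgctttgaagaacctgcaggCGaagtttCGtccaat
Lep (chr4:58626288-58626443, + strand): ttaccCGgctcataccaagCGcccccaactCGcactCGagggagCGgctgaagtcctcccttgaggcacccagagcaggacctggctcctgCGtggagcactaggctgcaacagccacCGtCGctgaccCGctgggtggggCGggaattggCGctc
Adad1 (chr2:121876918-121877097, + strand): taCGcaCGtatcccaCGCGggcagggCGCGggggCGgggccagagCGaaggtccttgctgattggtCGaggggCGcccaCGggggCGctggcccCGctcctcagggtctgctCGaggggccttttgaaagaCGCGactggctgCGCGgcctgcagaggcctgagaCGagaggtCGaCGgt
Tmprss12 (chr7:133312099-133312298, + strand): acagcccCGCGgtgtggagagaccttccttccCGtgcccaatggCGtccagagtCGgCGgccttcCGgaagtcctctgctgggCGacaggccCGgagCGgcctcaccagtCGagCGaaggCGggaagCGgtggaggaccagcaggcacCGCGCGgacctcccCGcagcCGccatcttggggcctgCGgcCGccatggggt
Igf2r (chr1:50526628-50526783, + strand): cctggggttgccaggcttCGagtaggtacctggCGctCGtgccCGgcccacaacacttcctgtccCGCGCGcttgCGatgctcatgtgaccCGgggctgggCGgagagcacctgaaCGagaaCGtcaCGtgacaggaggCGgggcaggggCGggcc

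Some UCs were much alike. Over the 1365 members the median gap in level was 2.61 points between UC 1 and UC 2 and 2.84 points between UC 4 and UC 5, against 7.77 points between the means of these pairs and 3.93 points between controls. A chi-square test of the calls at each tile gave p under 0.05 in 21.8% of members for UC 1 against UC 2 and in 23.3% for UC 4 against UC 5, where counting noise alone gives 5%. Each of the other UC pairings gave 61.5% to 77.4%, and pairs of controls 25.6% to 28.7%. The calls thus differed by more than counting noise, but calls on 1 read are not independent, and the test does not show whether UC 1 and UC 2, or UC 4 and UC 5, came from separate tumours. The 5 UCs were kept as 5 samples, as labelled, and counts are also given with the alike UCs merged.

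In the controls the median level of the 1365 members was 50.8%, 51.5% and 50.5%. In UC 1 to UC 5 it was 69.7%, 69.3%, 56.6%, 62.2% and 60.8%. All 5 UCs thus stood above all 3 controls in this median, and UC 3 was the nearest to them. The levels of the UCs spread to both ends of the scale. Levels above 80% were reached by 538, 520, 211, 405 and 407 members in UC 1 to UC 5, against 43 to 58 in the controls. Levels below 20% were reached by 202, 211, 159, 251 and 255 members in UC 1 to UC 5, against 37 to 47 in the controls. The control counts are low by the rule, which kept the control mean between 20% and 80%, so they are no background for the UC counts. The median SD between samples was 3.46 points among the 3 controls and 8.497 points among the 5 UCs.

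**Figure D1:**
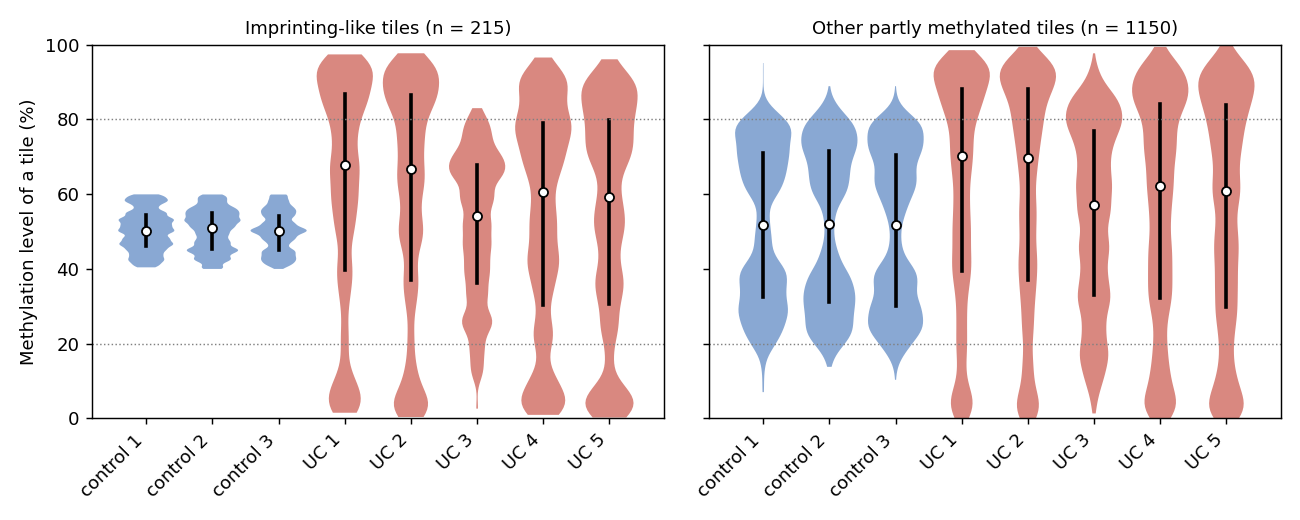
Methylation level (%) of each tile in each sample, for the 215 imprinting-like tiles (left) and the 1150 other members (right), with controls in blue and UCs in red. Width shows how many tiles lie at a level, the black bar spans the tiles from the lower to the upper quartile, the white point is the median, and dotted lines mark 20% and 80%. The control values of the left panel are bounded by the rule, whereas in UC 1, UC 2, UC 4 and UC 5 tiles gather near both ends.

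A tile was called when its adjusted p was under 0.05 in a moderated quasi-binomial fit over all 258144 tiles tested and the group means differed by more than 10 points. Of the 1365 members, 463 (33.9%) were called higher in UCs and 207 (15.2%) lower. Over all tiles tested, 9.29% were called higher and 7.15% lower, and over all dense tiles 5.32% and 0.949%. Of the 29898 dense tiles below 20% in controls, 4.204% were called higher and 0.151% lower, and of the 1717 above 80%, 1.92% and 3.55%. A tile near either end of the scale has little room to move one way, and the shares are given without a correction for this. Every UC lay above every control in 504 members (36.9%, against 15.4% of all tiles tested and 15.3% of dense tiles) and below every control in 238 (17.4%, against 10.0% and 3.33%). The difference between the UC mean and the control mean had a median of 8.75 points and ran from -70.4 to 63.9. With UC 1 and UC 2 merged, and UC 4 and UC 5 merged, 294 members were called higher and 135 lower, of which 58 and 34 were imprinting-like. Each control also weighed on the counts. Without control 1, 319 members were called higher and 141 lower, without control 2, 321 and 133, and without control 3, 280 and 126.

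The share of members called higher changed little with the level in controls. It was 33.1% of 480 members with a control mean of 20% to 40%, 35.2% of 372 at 40% to 60% and 33.7% of 513 at 60% to 80%. The share called lower was 18.1%, 18.0% and 10.3% in the same order. The members that just met the rule had control means of 20.001% (chr9:7466401-7466600) and 79.98% (chr9:82686201-82686400). The nearest tiles that missed it stood at 19.98% (chr10:62483401-62483600) and 80.01% (chr1:81868801-81869000).

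Of the 215 imprinting-like tiles, 81 (37.7%) were called higher in UCs and 46 (21.4%) lower, and without control 3 the counts were 56 and 30. Choosing tiles with 3 controls inside 20 points also bounded their control spread, which enters the test, so these shares are not set against those of the other members by a test. Among the 1150 other members, 382 (33.2%) were called higher and 161 (14.0%) lower. The median level of the imprinting-like tiles was 50.2%, 51.0% and 50.1% in the controls and 67.8%, 66.7%, 54.1%, 60.6% and 59.3% in UC 1 to UC 5. Of these 215 tiles, 34, 34, 62, 40 and 36 remained between 40% and 60% in UC 1 to UC 5, and only 7 did so in all 5.

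**Figure D2:**
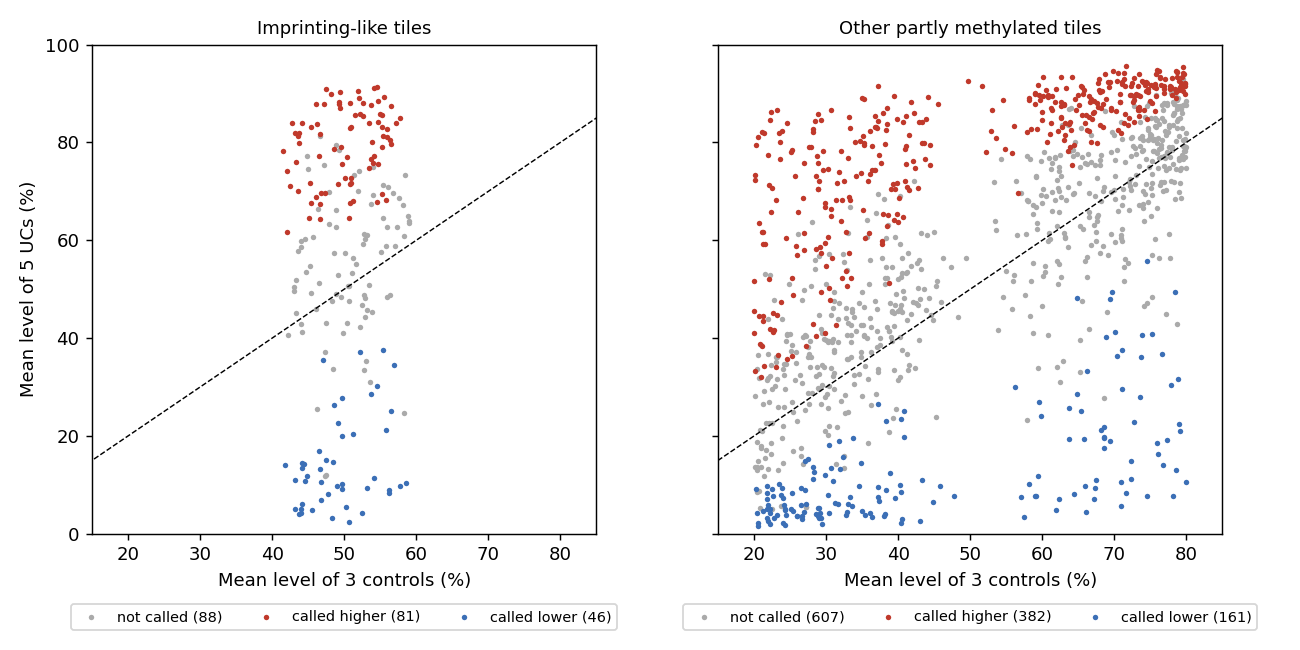
Mean level of the 5 UCs (%) against the mean level of the 3 controls (%), 1 point per tile, for imprinting-like tiles (left) and other members (right), with the diagonal dashed. Red tiles were called higher in UCs (81 left, 382 right), blue tiles lower (46 left, 161 right), and gray tiles were not called.

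The 5 imprinting-like tiles with the largest fall, with at most 1 taken per 10 kb, went from 44.1% to 59.6% in the controls to 7.98% or less in at least 4 UCs. The largest fall was at chr7:126544001-126544200, which had levels of 50.9%, 51.5% and 49.7% in the controls and of 2.22%, 0.917%, 2.63%, 2.71% and 3.50% in UC 1 to UC 5, a difference of -48.3 points. It is the one of these tiles at which UC 3 was as low as the other UCs. At chr1:170604001-170604200 the controls stood at 58.8%, 59.6% and 57.3% and UC 1 to UC 5 at 6.55%, 5.98%, 27.4%, 7.13% and 4.55%. At chr10:109190401-109190600 the controls stood at 54.1%, 59.3% and 55.5% and UC 1 to UC 5 at 7.98%, 2.28%, 24.8%, 4.598% and 2.25%. In both, UC 3 lay between the controls and the other 4 UCs. The tile at chr1:215031001-215031200 went from 55.8%, 47.4% and 54.2% to 4.89%, 1.06%, 13.3%, 1.64% and 0.249%. The tile at chr4:7231401-7231600 went from 47.8%, 53.1% and 44.1% to 2.17%, 1.11%, 10.3%, 1.496% and 0.681%. These tiles were chosen for groups that do not overlap and for the size of the fall, so both are a description, and the adjusted p of the fit, from 0.0002002 to 0.00377, is no separate evidence.

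The 5 with the largest rise went to 82.0% or more in UC 1, UC 2, UC 4 and UC 5 and to 66.7% to 79.9% in UC 3. The tile at chr11:69535001-69535200 had 48.0%, 42.4% and 52.1% in the controls and 97.1%, 96.0%, 79.9%, 90.8% and 91.1% in UC 1 to UC 5, a difference of 43.5 points. At chr1:222674401-222674600 the controls stood at 53.9%, 42.2% and 42.1% and UC 1 to UC 5 at 97.1%, 94.7%, 66.7%, 90.9% and 89.97%. At chr17:33954601-33954800, which lies 2867 bp from the placed promoter of Foxc1, a forkhead transcription factor of mesenchyme, the controls stood at 50.3%, 40.4% and 53.7% and UC 1 to UC 5 at 94.3%, 95.4%, 73.3%, 94.8% and 91.6%. UC 3 was the lowest UC in each of these. The tile at chr1:101808401-101808600 rose from 46.4%, 40.7% and 41.2% to 93.0%, 92.1%, 68.8%, 82.0% and 83.8%. The tile at chr9:88528801-88529000 rose from 52.9%, 48.0% and 47.3% to 95.1%, 93.5%, 78.7%, 94.2% and 90.5%. Their groups were apart by the same choice, and the adjusted p of the fit ran from 0.00178 to 0.0103.

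The CpGs inside a tile were read one by one in the pooled controls, where they had at least 20 reads. Every CpG lay between 20% and 80% in 121 of 215 imprinting-like tiles (56.3%) and in 195 of 1145 other members (17.0%). These limits lie farther from a mean near 50% than from the means of most other members, so the gap follows in part from the rule. The median SD between the CpGs of a tile was 14.4 points in imprinting-like tiles and 12.6 points in the other members, which does not set the imprinting-like tiles apart as more even. In 22 imprinting-like tiles at least one CpG was below 20% and another above 80%. Of the 121 even tiles, 42 (34.7%) were called higher and 28 (23.1%) lower. Of the 94 others, 39 (41.5%) were called higher and 18 (19.1%) lower. Of the 22 tiles with CpGs at both ends, 10 were called higher and 2 lower, and in 15 (68.2%) all 5 UCs stayed between 20% and 80%, against 38 of the 121 even tiles (31.4%). Neighbouring tiles were read in the same way. Both sides lay between 20% and 80% in 57 of 69 imprinting-like tiles with covered tiles on both sides (82.6%). Among the other members they did so in 178 of 322 (55.3%). Neighbours of a tile near 20% or 80% can pass these limits more easily than those of a tile near 50%. This gap too may follow from the rule, and it does not set the imprinting-like tiles apart.

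The 7 tiles that stayed between 40% and 60% in every sample were of both kinds. The tile at chr3:172385201-172385400, which lies 10.2 kb from a placed promoter of the imprinted gene Gnas, had 46.7%, 53.2% and 52.2% in the controls and 51.9%, 50%, 52.2%, 43.1% and 55.4% in UC 1 to UC 5. Its CpGs were even, from 37.3% to 57.6% in the pooled controls. The tile at chr1:65687401-65687600 was even too, with CpGs from 45.9% to 56.3%, and had 44.7%, 54.4% and 48.2% in the controls and 57.2%, 60%, 40.3%, 56.2% and 50.9% in UC 1 to UC 5. In contrast, the tiles at chr7:69552201-69552400, chr10:7278001-7278200 and chr16:20091001-20091200 held CpGs from at most 10.7% to at least 87.8% in the pooled controls, so that their middle level was not the level of each CpG. At chr10:7278001-7278200 the effective calls, an expected count given beside all calls, were 94.6% of all calls. With them its difference between UCs and controls was 7.15 points, against 5.19 with all calls. Their part in its CpG levels was not tested. Staying between 40% and 60% did not mean no shift. In the second of these the controls stood at 52.7%, 51.6% and 49.2% and UC 1 to UC 5 at 53.5%, 52.9%, 58.2%, 58.3% and 58.8%, with every UC above every control. In the last the controls stood at 52.2%, 58.9% and 56.6% and UC 1 to UC 5 at 49.8%, 49.9%, 45.7%, 45.2% and 51.2%, with every UC below every control, a difference of -7.59 points (adjusted p = 0.0435 in the fit).

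Tiles near known imprinted genes are described apart. Of 49 imprinted genes listed with earlier results known, 33 had a promoter in the reference table, 15 of these could be placed on rn6, and 6 (Plagl1, Igf2r, Gnas, Sgce, Peg10 and Mest) had a member within 5 kb. Only 2 of the 13 members there were imprinting-like, so the imprinting-like tiles do not stand for these loci. Most of the 13 lay within 1 kb of another, so they are not independent. None of the 13 was called by the quasi-binomial fit, 2 of them had an unadjusted p under 0.05 and the lowest adjusted p was 0.0944. Over all members 49.1% were called, over all tiles tested 16.4% and over all dense tiles 6.26%. The differences between UCs and controls ran from -4.09 to 9.09 points, and their median size was 3.73 points, against 15.9 points over all members. In 11 of the 13 all 5 UCs stayed between 20% and 80%. With 8 samples these values do not show that the tiles were unchanged.

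Mest, which encodes a hydrolase-like protein read from the paternal allele, had a tile over its start (chr4:58052801-58053000) with 41.7%, 38.3% and 41.7% in the controls and 41.2%, 44.9%, 44.5%, 54.5% and 41.3% in UC 1 to UC 5. UC 4 was the highest sample there. At Gnas, the locus of the stimulatory G protein alpha subunit and of several imprinted transcripts, the tile at chr3:172375201-172375400 had 43.1%, 41.7% and 47.1% in the controls and 42.0%, 36.7%, 46.7%, 47.0% and 41.7% in UC 1 to UC 5. The groups overlapped there, and its CpGs lay between 39.4% and 47.9% in the pooled controls. A second Gnas tile, chr3:172418801-172419000, had 37.7%, 35.4% and 34.1% in the controls and 41.6%, 32.0%, 18.8%, 36.3% and 29.7% in UC 1 to UC 5, with UC 3 the lowest. The tile chr4:29796201-29796400, which lies beside the facing starts of Sgce, which encodes the sarcoglycan epsilon, and Peg10, a gene derived from a retrotransposon, had 49.4%, 40.1% and 46.8% in the controls and 50.9%, 51.3%, 60.3%, 43.8% and 39.6% in UC 1 to UC 5.

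A part of the promoter of Igf2r, the receptor that binds insulin-like growth factor 2 and carries it to lysosomes, is the last of the sequences above. It lies in the tile chr1:48175801-48176000, which had 30.7%, 30.0% and 38.1% in the controls and 43.8%, 48.1%, 37.8%, 38.3% and 35.5% in UC 1 to UC 5. The adjoining tile over the start, whose sequence is not shown, had 27.1%, 24.3% and 31.6% in the controls and 34.0%, 33.2%, 37.1%, 47.6% and 32.0% in the UCs. Every UC lay above every control in the second tile, by 9.09 points on average, with a two-sided exact permutation p of 0.0536 for the difference of means (over the 56 divisions of the samples, the smallest possible p being 0.0179) and no call. Plagl1, a zinc finger gene read from the paternal allele, had 34.7%, 34.6% and 29.9% in the controls and 41.9%, 41.0%, 32.9%, 36.4% and 26.4% in the UCs.

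**Figure D3:**
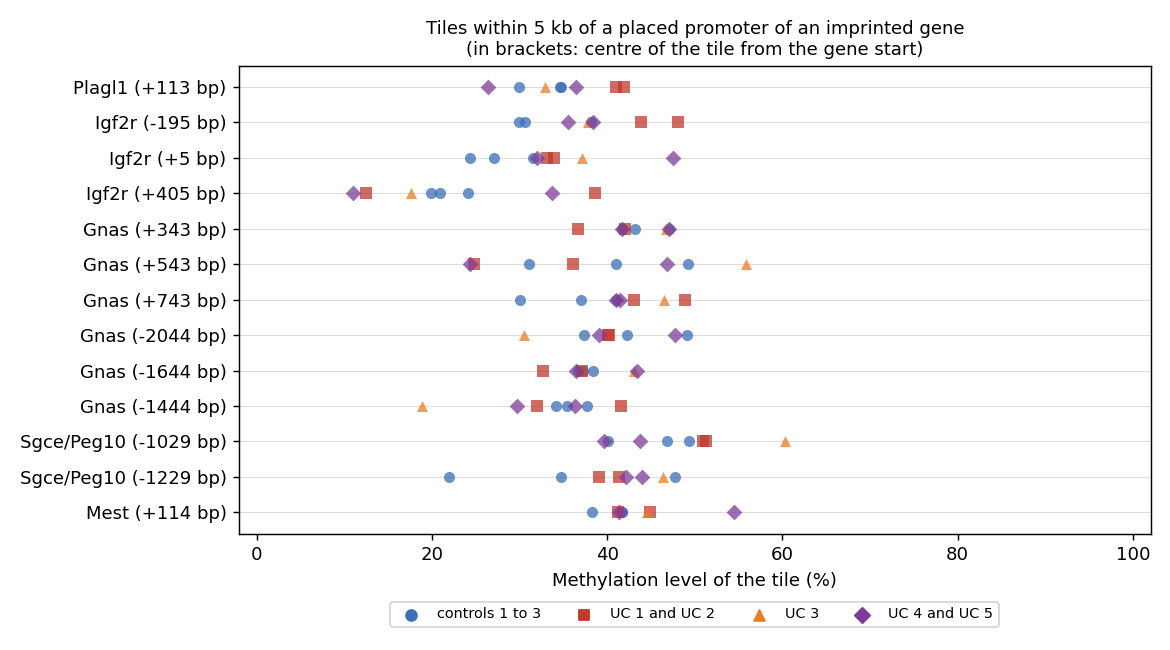
Methylation level (%) in each sample of the 13 members within 5 kb of a placed promoter of a listed imprinted gene, 1 line per tile, with the distance of the tile's centre from the gene start in brackets (for the shared Sgce/Peg10 tiles, from the start of Sgce). Controls are blue circles and UCs are squares, triangles and diamonds. In every line but those of 2 tiles, all UCs lie between 20% and 80%.

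Among the other members the largest changes crossed most of the scale. The largest rise was at chr15:2377001-2377200, 2370 bp from the placed promoter of Zfp503, a zinc finger repressor of transcription. Its levels were 23.6%, 18.98% and 24.4% in the controls and 92.9%, 93.4%, 64.8%, 92.5% and 87.4% in UC 1 to UC 5, a rise of 63.9 points. The next 4 rises were at chr3:151145601-151145800, chr13:102663401-102663600, chr8:53547001-53547200 and chr10:83642401-83642600, by 60.5 to 63.5 points, and the last of these lies 5834 bp from the placed promoter of the phosphatase gene Phospho1. The largest fall was at chr10:67044001-67044200, from 76.3%, 79.2% and 79.0% in the controls to 3.21%, 2.14%, 28.2%, 2.76% and 2.50% in UC 1 to UC 5. This fall was of 70.4 points, and UC 3 again stood between the groups. The next 4 falls were by 65.1 to 69.4 points, at chr13:53090801-53091000, chr7:134513601-134513800, chr15:103935401-103935600 and chr6:7254601-7254800. These 10 tiles too were chosen for groups apart and large differences, with an adjusted p from the fit of 0.000679 to 0.00577.

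Members were seldom at promoters. A placed promoter window overlapped 49 of the 1365 members (3.59%), against 28.4% of the dense tiles below 20% in controls and 1.16% of those above 80%. Since 8423 of 33469 promoters were placed, these shares are lower bounds for promoters of every gene. Of these 49 members, 6 were called higher and 10 lower (32.7% in all, against 49.1% of all members, 16.4% of all tiles tested and 6.26% of dense tiles).

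Tbx1, a T-box transcription factor of pharyngeal development, had the largest rise of them. Its tile over the start, chr11:86553801-86554000, had 38.2%, 35.7% and 36.6% in the controls and 89.6%, 88.6%, 62.5%, 86.3% and 88.5% in UC 1 to UC 5, a rise of 46.3 points (adjusted p = 0.00325 in the fit). The share of all calls that fell within 1 Mb of it was 3.12 and 2.75 times the control mean in UC 4 and UC 5. In UC 1 to UC 3 it was 0.953 to 1.05 times, and the part of this share in the level was not tested. Spesp1, which encodes a protein of the sperm head, had 60.3%, 65.0% and 67.1% in the controls and 93.0%, 97.0%, 84.3%, 94.1% and 98.8% in the UCs. That tile rested on 58 to 153 calls per sample. Fgd3, an exchange factor of the Cdc42 GTPase, had 61.0%, 68.5% and 71.1% in the controls and 85.3%, 84.5%, 78.5%, 86.9% and 89.0% in the UCs. At Tbx1, Spesp1 and Fgd3 every UC lay above every control.

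Dsc3, which encodes the desmosomal cadherin desmocollin 3 of stratified epithelia, had the opposite pattern. Its promoter tile, chr18:11789801-11790000, had 36.4%, 35.2% and 39.8% in the controls and 3.46%, 2.46%, 26.3%, 3.61% and 1.89% in UC 1 to UC 5, with an adjusted p of 0.0347 in the fit. UC 3 was the UC nearest to the controls there. Krtcap3, which encodes keratinocyte-associated protein 3, had 34.4%, 38.3% and 25.7% in the controls and 3.25%, 1.62%, 9.26%, 3.82% and 1.06% in the UCs. Plekhg5 had 21.6%, 28.8% and 22.9% in the controls and 0.719%, 0%, 17.0%, 0.897% and 0.755% in the UCs. The 0% in UC 2 was 0 of 157 calls, which allows a level of up to 1.91%, for counting error only. The share of calls within 1 Mb of this tile was 0.579, 0.523 and 0.757 times the control mean in UC 1, UC 2 and UC 3. Its part in the level was not tested. C8h3orf62 fell from 59.6%, 59.6% and 48.0% to 23.3%, 20.3%, 25.2%, 20.2% and 16.7%, and here UC 3 was close to the other UCs. Ccdc24, a coiled-coil gene, fell by 12.4 points on average. Its share of calls within 1 Mb was 1.54, 1.44 and 0.777 times the control mean in UC 1, UC 2 and UC 3, with its part in the level not tested.

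At a few promoters the pairs of UCs lay apart, and these were chosen for description after their values were seen. At Hoxd12, a homeobox gene of the limb and the urogenital tract, the controls stood at 36.5%, 35.1% and 41.4%, UC 1 and UC 2 at 89.0% and 84.8%, UC 3 at 48.5%, and UC 4 and UC 5 at 31.8% and 27.8%. Lep, the gene of the hormone leptin, had 48.2%, 39.4% and 44.4% in the controls, 90.9% and 83.4% in UC 1 and UC 2, 50.9% in UC 3, and 39.0% and 41.3% in UC 4 and UC 5. At both only UC 1 and UC 2 were far above the controls, and at Hoxd12 UC 4 and UC 5 lay below every control. The germ line genes Piwil1, which encodes a PIWI protein that binds small RNAs and shares its placed window with an uncharacterised locus, and Adad1, which encodes a testis protein with a deaminase domain, and Fam229a showed the same order, with UC 1 and UC 2 at 91.2% to 94.4% and UC 4 and UC 5 at 41.9% to 50.4%. Their controls stood at 43.9% to 59.6%, 61.0% to 63.5% and 33.4% to 41.6%, so that at Adad1 UC 4 and UC 5 lay below them. In the same order UC 3 stood at 82.7%, 74.5% and 73.8%, above every control, unlike its levels near the controls at Lep and Hoxd12. At Fam229a every UC lay above every control. Tmprss12, a serine protease gene of the testis, had 61.6%, 48.8% and 50.5% in the controls, 51.2% and 42.7% in UC 1 and UC 2, 44.3% in UC 3, and 85.5% and 86.5% in UC 4 and UC 5. Krt8, which encodes keratin 8 of simple epithelia, had 55.1%, 66.3% and 59.7% in the controls, 47.2% and 19.8% in UC 1 and UC 2, 55.0% in UC 3, and 77.2% and 74.1% in UC 4 and UC 5, so that the pairs lay on opposite sides of the controls. None of these was called over the 5 UCs.

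**Figure D4:**
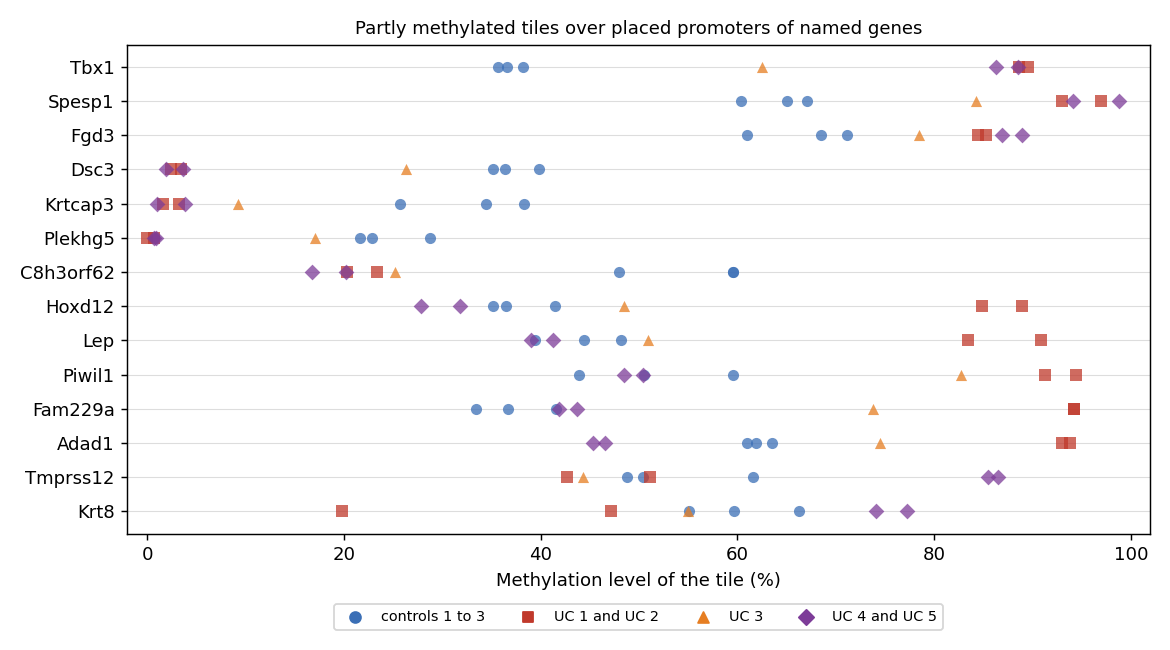
Methylation level (%) in each sample of member tiles over the placed promoters of 14 genes, 1 line per gene. Blue circles are the 3 controls, red squares UC 1 and UC 2, orange triangles UC 3 and purple diamonds UC 4 and UC 5. From Tbx1 to C8h3orf62 all UCs lie on one side of the controls, and from Hoxd12 downward the pairs of UCs lie apart.

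The same split was counted over all members. UC 1 and UC 2 were both above 80% while UC 4 and UC 5 were both between 20% and 80% in 142 members, and the reverse held in 43. UC 4 and UC 5 were both below 20% while UC 1 and UC 2 were between 20% and 80% in 60 members, and the reverse held in 19. One member had UC 1 and UC 2 above 80% with UC 4 and UC 5 below 20%, and another had the opposite. At chr16:20588201-20588400 UC 1 and UC 2 stood at 88.2% and 86.8%, UC 3 at 60.8% and UC 4 and UC 5 at 16.6% and 11.8%, against 19.2% to 24.5% in the controls. At chr3:45952401-45952600 UC 1 and UC 2 stood at 7.69% and 9.67%, UC 3 at 86.1% and UC 4 and UC 5 at 88.3% and 84.7%, against 62.7% to 76.7% in the controls. Both were among the 6 tiles chosen for the largest gap between the pairs and are given as a description. A further one, chr11:86521801-86522000, 760 bp from the placed promoter of the platelet glycoprotein gene Gp1bb, had 86.1% and 75% in UC 4 and UC 5 against 12.2% to 28.3% in the controls and 1.34% to 16.8% in UC 1 to UC 3. The share of all calls that fell within 1 Mb of this tile was 3.01 and 2.65 times the control mean in UC 4 and UC 5, and the part of this in its level was not tested.

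In UC 3 most members that moved in the other 4 UCs had moved part of the way. Of the 170 members with the other 4 UCs all below 20%, UC 3 lay between the control mean and the mean of those 4 in 154, and it had covered a median of 60.3% of the distance. Of the 309 members with the other 4 UCs all above 80%, it lay between in 278 and had covered a median of 50.8%. For the imprinting-like tiles the counts were 33 of 33 with 59.3% of the way and 38 of 40 with 46.7%. These tiles were chosen by the extreme levels of the other 4 UCs, which by itself favours a UC 3 level nearer the controls. The count was not made with another UC left out, so it is a description. The other 4 UCs were above 80% with UC 3 between 20% and 80% in 39 imprinting-like tiles, and all 5 UCs were above 80% in 1. The methylation files give no measure of how much normal tissue each tumour sample held, so a partial change in each cell and a change in part of the cells cannot be told apart.

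**Figure D5:**
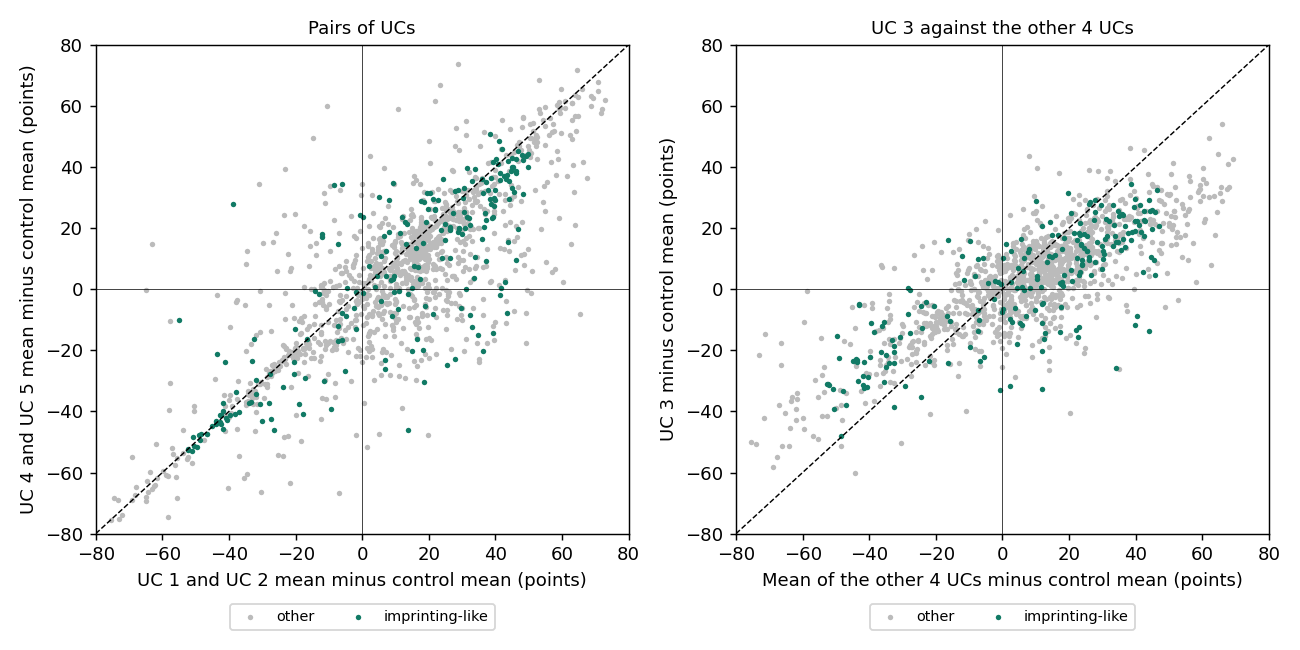
Change in level from the control mean (points) at each member, with imprinting-like tiles in green, other members in gray and the diagonal dashed. Left, the mean of UC 4 and UC 5 against the mean of UC 1 and UC 2, with many tiles near the diagonal and some near one axis only. Right, UC 3 against the mean of the other 4 UCs, with most moved tiles between the diagonal and 0.

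All 5 UCs were above 80% in 134 members and below 20% in 109, and all 5 stayed between 20% and 80% in 405, of which 71 were imprinting-like. Members lay in 1132 stretches when tiles up to 1 kb apart were joined, and 983 stretches held a single member. Where a stretch held 2 or more called tiles (75 stretches), all were called the same way. Tiles in a stretch are therefore not independent, and the 215 imprinting-like tiles fell in 193 stretches. The longest run of adjoining members was of 6 tiles at chr1:78810201-78811400, 9398 bp from the placed promoter of Dact3, a regulator of Wnt signalling. The run turned along its length. Its first tile had 53.3%, 60.6% and 54.5% in the controls and 31.0%, 24.3%, 44.1%, 23.2% and 26.9% in UC 1 to UC 5, and was called lower with the second. The tile at chr1:78811001-78811200 had 39.7%, 43.8% and 40.4% in the controls and 73.5%, 70.8%, 46.4%, 51.0% and 45.7% in UC 1 to UC 5, and was not called.

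Members made up from 2.36% of the dense tiles of chr8 to 7.70% of those of chr12. Local depth moved with some calls. The share of a UC's calls that fell within 1 Mb of the tile was below 0.8 or above 1.25 times the control mean in at least one UC for 77 of the 463 members called higher (16.6%), 54 of the 207 called lower (26.1%) and 123 of the 695 not called (17.7%). For the imprinting-like tiles these shares were 14.8%, 37.0% and 18.2%. Whether this had a part in the levels was not tested.

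One deep stretch showed a split within the controls. Its 4 tiles between chr1:11906201 and chr1:11911400, with 2238 to 60204 calls per sample, had levels of 7.04% to 9.04% in control 1 but 26.7% to 38.9% in control 2 and 27.3% to 36.0% in control 3. In the UCs they lay between 2.33% and 8.95%. None of the 4 was called. Their depth, far above the median of 365 calls for members, leaves unknown whether reads of more than one copy were counted there, and this was not tested.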

How the data were processed

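RRBS libraries (TaqaI and MspI digests, single reads) of 3 controls and 5 UCs were analysed. Per the study's methods, the authors had reads trimmed, aligned with RRBSMAP, kept where unique and freed of PCR duplicates by a random barcode. The submitters' processing notes name rn6 and HOMER. The deposited files give, for every CpG, counts of methylated and of all calls, an expected count of effective calls and the methylated fraction, and each listed CpG had at least 3 reads. Total calls ran from 51434938 to 73836223 per sample and the median was 14 to 18 reads per CpG. The members had a median of 365 calls per tile and sample.

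Counts were summed in tiles of 200 bp, and 258144 tiles with at least 3 CpGs in every sample were tested without covariates. The test was a quasi-binomial model with dispersion moderated by limma 3.58.1 (R 4.3.3, Python 3.11.15), with Benjamini-Hochberg adjustment over all tiles. It was also run on simulated data, with samples drawn independently and each changed tile shifted alike in all UCs. The UCs here were alike in pairs and did not shift alike, so that run gives no error rate for these data. The methods' ANOVA stood among the alternatives. The members and gene lists were chosen with earlier results of these data known. Labels do not give separate animals, so p-values measure the spread between these samples.

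Tiles were named by a fixed rule: at least 100 calls in every sample, no overlap of groups and the 5 largest differences per direction and class with at most 1 tile per 10 kb, the 5 imprinting-like tiles with every UC at 40% to 60% and most CpGs, the 3 largest gaps between UC pairs per direction, and the longest run. Promoter tiles were named after their values were seen. RefSeq promoter windows (GRCr8, 250 bases before to 50 after the start) were placed on rn6, a step added after the files were seen, where the spacing of at least 8 CpGs matched at 1 place and at least 95% of the CpGs in the files there were promoter CpGs. Of 33469 windows 8462 had 1 place, of which 8423 (99.5%) lay on the same chromosome and were used.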

Additional observations from a re-analysis of the deposited data

Results flagged for a closer look

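In 24 of the 103 values looked at, 1 of the 5 UCs lay apart from the other 4 by the 95% limit of Dixon's test. In 23 of the 24 that sample was UC 3. The test rests on the gap to the nearest UC, and only UC 3 had no close match among the UCs. The other 4 could thus seldom be set apart, and the chance rate of about 1 in 20 does not hold here. Many of the values were also from tiles chosen for large differences or from adjoining tiles, so they are not independent. The counts are given as a description. UC 3 had 16 imprinting-like tiles below 20%, fewer than any other UC. Among the imprinting-like tiles with the largest rise, UC 3 stood at 66.7% (chr1:222674401), 73.3% (near Foxc1) and 78.7% (chr9:88528801), below the other UCs. Among those with the largest fall it stood at 27.4% (chr1:170604001), 24.8% (chr10:109190401) and 10.3% (chr4:7231401), above them. Among the other members it stood at 64.8% (near Zfp503) and 54.5% (chr8:53547001) where tiles rose, and at 28.2% (chr10:67044001), 29.3% (chr13:53090801), 36.4% (chr15:103935401) and 15.9% (chr6:7254601) where they fell.

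At placed promoters UC 3 stood apart at Tbx1 (62.5%), Dsc3 (26.3%), Plekhg5 (17.0%) and 5 loci without a named product. These were LOC134484899 (42.2% and 42.8% in adjoining tiles), LOC120101802 (22.7%), LOC134480864 (86.1%), LOC102547165 (52.2% and 40.04%) and LOC120096257 (34.4%). At LOC134484899 the controls stood at 43.7% to 52.0% and the other 4 UCs at 2.71% to 5.29%, so that UC 3 was below every control but within 10 points of each. The one value set apart by another sample was the Mest tile, where UC 4 stood at 54.5%.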

How the results depend on the processing

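All 4 counts of called members kept within 1.5 times their size under the effective count, 10 reads per CpG, tiles shifted by 100 bp, dense tiles alone, chr1 to chr20 alone, a minimum difference of 20 points or none, no moderation, limma on M values and the F-test on percentages or on means of CpG levels. With the calls of the 2 pairs of similar UCs summed, 294 members were called higher and 135 lower. Leaving out 1 sample in turn gave 280 to 534 members called higher and 126 to 227 lower, and 56 to 94 imprinting-like tiles higher and 30 to 49 lower. The replicate block fits each number shared by a control and a UC, and leaves 2 residual degrees of freedom. UC 4 and UC 5 have no same-numbered control and did not enter its test. With this block 0 members were called in either direction, and 510 and 214 had an unadjusted p under 0.05 higher and lower. The direction and size of the difference in these counts were still taken over all 5 UCs. Controls and UCs share numbers in the labels, but the deviations of same-numbered samples correlated at 0.132, -0.108 and 0.0858 over the members and not every sample correlated best with its own number, so the numbers were not taken as pairs.

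Of the 37 named tiles, 24 had an exact permutation p under 0.05, and 20 to 24 when 1 sample was left out, but 20 of the 37 were named for groups that do not overlap, which fixes their p, so this count says nothing of stability. With the pairs merged the smallest possible p is 0.1, so no such count was made. For 3 tiles a difference near 0 changed sign. At chr3:172385201 it was 4.38 points with means of CpG levels and 0.296 with summed pairs, and ran from -2.16 to 1.70 when 1 sample was left out. At chr7:69552201 it was 0.0191 with means of CpG levels and ran from -2.19 to 0.793 when 1 sample was left out, and at chr1:78810601 in the run near Dact3 it ran from -4.07 to 1.71. Of the 407 values of named tiles under alternatives with a test, 378 kept direction and side of the threshold. The 20 tiles named for groups that do not overlap weigh on this count too, so it is no measure of stability. With 3 controls, each control weighs on every count, and a single level rests on a median of 365 calls.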
